A study of Mus musculus with 56 samples.

Results

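Among 56 RNA-seq libraries of mouse prefrontal cortex, the 9 with the most of the olfactory bulb transcript Doc2g are described here. They were selected on their Doc2g values: all 56 libraries were ranked by this gene, the 9 highest were set beside the 28 lowest, and the 19 in between were kept as a middle class. The 9 libraries held Doc2g values of 1231 to 2957, and the 28 held 106 to 222. At the upper boundary the 9th library stood at 1231 and the 10th at 1013, and at the lower boundary the 28th stood at 304 and the 29th at 222. Because Doc2g chose the classes, all differences between the 9 and the 28 libraries are given as descriptions and without a test.

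The mice were of the C57BL/6J strain and either heterozygous for Scn2a (HT), the gene of the neuronal sodium channel NaV1.2, or wild type (WT). Their dams delivered fluoxetine (a serotonin reuptake inhibitor), lithium (a mood stabiliser) or vehicle in the milk over 3 weeks, from day 3 after birth until day 24, and brains were sampled at 25 days of age. Females and males were profiled in every combination of genotype and treatment, with 4 libraries in WT vehicle males, WT lithium females and both female groups given fluoxetine, and 5 in each of the other groups. The labels give no dam, litter or dissection record, so group mates may be littermates, and p-values measure only the spread between these libraries. A value is a gene's read count divided by a single size factor per library, as deposited. Libraries held 24.3 to 36.4 M reads: the 9 had 24.4 to 30.95 M (median 27.3), the 19 had 24.7 to 36.4 M (28.3) and the 28 had 24.3 to 31.3 M (27.4), so the classes overlapped in depth. Scn2a, the check of the genotype labels, was 7583 to 9619 in the 29 HT libraries and 9727 to 13381 in the 27 WT libraries, with no overlap.

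The olfactory bulb lies directly in front of the frontal cortex in the mouse. Its output neurons, the mitral and tufted cells, receive the axons of olfactory sensory neurons in the glomeruli and project to the olfactory cortex, and granule and periglomerular interneurons surround them. These interneurons are renewed through life by neuroblasts that migrate from the subventricular zone through the rostral migratory stream into the core of the bulb.

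Doc2g encodes a double C2 domain protein and is a marker of mitral and tufted cells, and Ms4a15 encodes a membrane-spanning protein of the MS4A family. Ranking by Ms4a15 instead of Doc2g gave the same 9 highest libraries and the same 28 lowest. The sequences before the start sites of these 2 genes are shown because both genes divide the libraries in the same way. Each run gives 250 bases up to the start site, from RefSeq on GRCm38.p6, in the direction of the gene: Doc2g at chr19:4003135-4003384 on the plus strand, and Ms4a15 at chr19:10993251-10993500 on the minus strand.
Doc2g: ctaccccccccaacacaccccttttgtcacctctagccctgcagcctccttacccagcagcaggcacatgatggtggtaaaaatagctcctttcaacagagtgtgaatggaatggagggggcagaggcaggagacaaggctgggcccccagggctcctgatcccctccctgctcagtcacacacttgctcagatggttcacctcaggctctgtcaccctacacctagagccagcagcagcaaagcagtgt
Ms4a15: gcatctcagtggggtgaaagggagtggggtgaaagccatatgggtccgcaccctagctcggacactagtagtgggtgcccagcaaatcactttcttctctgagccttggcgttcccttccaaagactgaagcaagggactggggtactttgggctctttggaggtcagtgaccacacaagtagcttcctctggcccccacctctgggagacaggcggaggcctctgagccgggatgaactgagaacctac
Both genes lie on chromosome 19 but at distant positions. Tbx21 and Eomes encode T-box transcription factors of the output neurons, so the windows of 250 bases before to 50 after the start site were searched on both strands for the core T-box binding motif GGTGTGA. None of the 8 windows searched, those of Doc2g, Ms4a15, Tbx21, Eomes, Cdhr1, Lhx1, Barhl2 and S100a5, held these letters, against 1307 of 32851 windows of this length over all genes (3.98%). The absence concerns only these letters in this window.

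The output neuron markers were at high values together. In the order of falling Doc2g the 9 libraries were WT vehicle female 3, HT lithium female 3, HT lithium male 1, WT fluoxetine female 2, HT vehicle female 4, WT fluoxetine male 1, HT fluoxetine female 2, HT fluoxetine female 4 and HT vehicle female 1. In that order their Doc2g values were 2957, 2539, 1601, 1454, 1374, 1326, 1308, 1253 and 1231, so WT vehicle female 3 and HT lithium female 3 stood above the other 7.

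Ms4a15 was 652, 612, 365, 390.0, 320.2, 307, 332, 315 and 328 in the same order, 70.1 to 306 in the 19 middle libraries, and 0 to 47.1 with a median of 13.6 in the 28 lowest. Eomes was 734, 694, 454, 431, 372, 356, 379, 421 and 333 in the 9, 91.9 to 343 in the 19, and 0 to 69.7 with a median of 20.54 in the 28. Tbx21 was 252, 278, 166, 162, 131, 157, 177, 164 and 122 in the 9, 22.6 to 131 in the 19, and 0 to 41.2 with a median of 9.49 in the 28. For each of these 3 genes every one of the 9 libraries lay above all of the 28, as was so for 182 of all 17778 genes tested (1.02%), and for Ms4a15 and Eomes the 19 middle libraries also lay above all of the 28. The medians of the 9 were 24.4-fold (Ms4a15), 20.49-fold (Eomes) and 17.3-fold (Tbx21) those of the 28, and for Doc2g the ratio was 9.42.

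Cdhr1, a cadherin-related protein of mitral and tufted cells, was 2016 to 4411 in the 9 libraries with a median of 2301, and 101 to 593 with a median of 299 in the 28. The homeobox gene Barhl2 was 15.0 to 51.5 in the 9 and 0 to 8.66 in the 28, and Lhx5, a LIM homeobox gene, was 7.75 to 24.8 in the 9 and 0 to 10.6 in the 28. Lhx5 was the only one of the 7 tested members of the projection neuron list whose classes overlapped. Doc2g, which chose the classes, is 1 of these 7. For the other member of that list, Lhx1, no expression value was used here. S100a5, a calcium-binding protein abundant in olfactory sensory neurons, was 78.8, 53.2, 68.6, 25.0, 29.9, 22.2, 22.4, 26.6 and 23.6 in the 9, 0 to 26.8 in the 19, and at most 0.987 in the 28. No fold is given for S100a5 since its median in the 28 was 0.

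**Figure D1:**
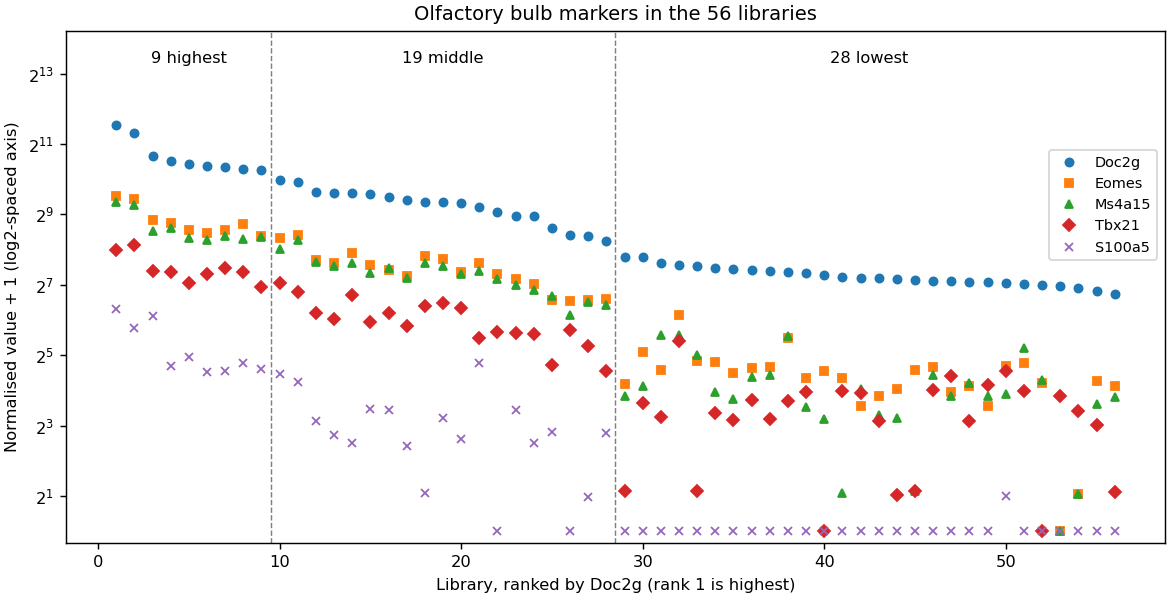
Normalised values plus 1 of Doc2g, Eomes, Ms4a15, Tbx21 and S100a5 on a log2-spaced axis in the 56 libraries, ranked by Doc2g, with dashed lines between the 9 highest, 19 middle and 28 lowest. Eomes, Ms4a15 and Tbx21 fall broadly with Doc2g from rank 1. S100a5 falls less evenly and is at or below 0.987 in all of the 28 lowest.

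Interneuron genes of the bulb were also high, with smaller ratios. Of 11 genes of granule and periglomerular cells, 6 had a mean log2(value + 1) at least 1 higher in the 9 libraries than in the 28, and for 9 the classes did not overlap. Over all 17778 genes tested, 166 were past this difference in the higher direction (0.934%). In the lower direction 20 genes were past it (0.112%) and 3 did not overlap (0.0169%). Since the classes were chosen on Doc2g, which these genes accompany, nothing is read from the excess of the listed genes over these shares.

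Th, which makes the rate-limiting enzyme of dopamine synthesis in periglomerular cells, was 544 to 1300 in the 9 libraries with a median of 677, and 72.4 to 153 with a median of 108 in the 28. Calb2, the gene of calretinin, was 2307 to 4337 in the 9 and 400.0 to 699 in the 28. Sp8, a zinc finger factor needed for periglomerular interneurons, was 412 to 881 in the 9 and 65.0 to 206 in the 28. All 3 had no overlap, and the ratios of the medians were 6.26 for Th, 4.45 for Calb2 and 3.99 for Sp8. Trh, the gene of thyrotropin-releasing hormone, had a ratio of 4.51, Pbx3 of 3.04 and Tshz1 of 2.63.

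Synpr, Meis2 and Pax6 differed by less than 1 on the log2 scale, at 0.66, 0.57 and 0.95, and yet did not overlap between the classes. These 3 genes were also expressed at 2679 or more, 3933 or more and 165 or more in every one of the 28 lowest libraries. Etv1 and Tpbg differed by 0.15 and 0.07, with overlapping classes.

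Genes of sensory axons and olfactory ensheathing glia were split. Omp, the olfactory marker protein of mature sensory neurons, was 58.7 to 219 in the 9 libraries and 9.60 to 25.1 in the 28, and Stoml3, a stomatin-like protein, was 12.2 to 56.4 in the 9 and 0 to 6.01 in the 28. The other 5 of the 7 members overlapped between the classes: the sensory channel genes Cnga2 and Cnga4 differed by 0.16 and -0.28 on the log2 scale, Gng13 by 0.01, Rtp1 by -0.15 and the ensheathing glia gene Frzb by 0.26.

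Neuroblast transcripts came with the bulb transcripts, at smaller ratios. Of 15 neuroblast genes, 6 were past a log2 difference of 1, 7 did not overlap, and the median difference was 0.73. The median was 1.40 over the 11 interneuron genes and -0.01 over all genes tested. Over the 7 projection neuron genes it was 3.39, which is the value of Doc2g itself, the gene that chose the classes. The 6 neuroblast genes past 1 were the zinc finger gene Sp9 (1.69), Igfbpl1 (1.39), the homeobox genes Dlx1 (1.36), Dlx2 (1.29) and Dlx5 (1.26), and Prokr2 (1.32), the receptor for prokineticin 2, which guides neuroblasts into the bulb.

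Dcx, the gene of the microtubule protein doublecortin in migrating neuroblasts, was 4974, 5183, 3718, 3391, 3318, 3347, 3314, 3984 and 4182 in the 9 libraries, in the order of falling Doc2g. It was 2008 to 4103 in the 19 and 1622 to 2749 with a median of 2018 in the 28, a ratio of medians of 1.84 without overlap between the 9 and the 28. Prokr2 was 298 to 549 in the 9 and 45.7 to 282 in the 28. The 2 genes of dividing cells named here were not higher in this way: Mki67 was 63.3 to 161 in the 9 and 49.3 to 170.3 in the 28, and Top2a was 47.2 to 147 and 34.9 to 175. Their log2 differences were 0.22 and 0.01.

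Of the 41 genes tested on the output neuron, interneuron, sensory and neuroblast lists, S100a5 included, 22 were past the log2 difference of 1. Doc2g, which chose the classes, is 1 of the 22. In these bulk libraries more cells of a type and more RNA per cell cannot be told apart.

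**Figure D2:**
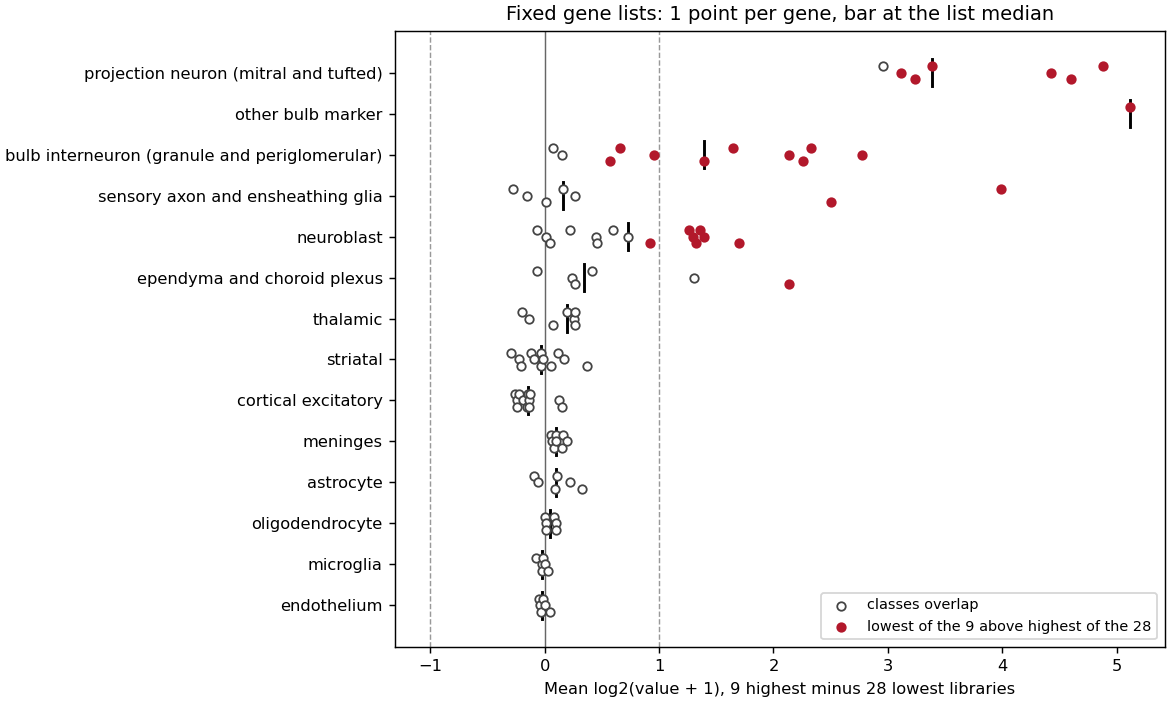
Difference of mean log2(value + 1) between the 9 highest and the 28 lowest libraries for each tested gene of the fixed lists, 1 point per gene, with bars at list medians, dashed lines at -1 and 1, and filled points where all of the 9 lay above all of the 28. The other bulb marker is S100a5, and the projection neuron genes lie between 2.96 and 4.88 while the cortical genes lie between -0.26 and 0.15. Doc2g, which chose the classes, is among the projection neuron genes.

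Genes outside the lists with a mean value of at least 50 and the largest differences included other genes of the bulb. Scgn, the gene of the calcium-binding protein secretagogin, was 102 to 248 in the 9 libraries and 5.36 to 22.8 in the 28. Frmd7, a FERM domain gene, was 265 to 696 and 10.8 to 68.0, and Shisa3 was 246 to 638 and 7.90 to 58.1. Vipr2, a receptor for vasoactive intestinal peptide, was 142 to 389.9 and 24.6 to 54.4, and Nmb, the gene of neuromedin B, was 96.3 to 242 and 16.6 to 37.9. None of these 5 overlapped between the classes. Dnah11, Sp7, Shisa8 and Rab37 were the remaining genes of this ranking with no overlap that are named here, at log2 differences of 3.44, 2.30, 2.08 and 1.85.

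The ranking also held genes of the sex imbalance. Xist, the RNA of the inactive X chromosome, differed by 3.12, and the Y-linked genes Ddx3y, Eif2s3y, Kdm5d and Uty were the 4 lowest genes, at -2.85, -2.63, -2.46 and -2.43. The other low genes overlapped between the classes: Fam205a4 (-1.74), Hist2h2aa2 (-1.37), 1 of 2 entries named Nnt (-0.85), Rsc1a1 (-0.82) and Fam205a2 (-0.58) were at 0 in some libraries of both classes, and Igfn1 (-0.55) was 218 to 494 in the 9 and 369 to 690.1 in the 28. The 9 libraries were from 7 females and 2 males, the 28 from 14 females and 14 males. Each gene was then centred on the mean of its genotype, treatment and sex group, taken over the libraries of the group outside the 9. The difference became 0.37 for Xist and -0.02 for Ddx3y, while it was 4.96 for Ms4a15, 2.78 for Th and 0.94 for Dcx. As the 9 did not enter their own reference, these are not differences from full group means.

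Of the 166 genes past the difference, 142 were protein coding, 109 had a mean value under 50, 91 did not overlap between the classes, and 156 were also past it after centring on the groups. The 19 middle libraries, whose values entered no part of the difference, gave a positive correlation with Doc2g for 148 of the 166 (89.2%), against 47.4% of all genes. Doc2g is 1 of the 166, with r = 1 by construction, and the 166 were picked by a contrast on Doc2g, so this is not an independent check. It is a description across genes, which share the libraries, and no p is given.

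Markers of other brain regions and cell types, apart from ependyma and choroid plexus, were close to level between the classes. The median log2 difference was -0.03 over 12 striatal genes, 0.20 over 7 thalamic genes, 0.09 over 8 meningeal genes, 0.10 over 6 astrocyte genes, 0.05 over 6 oligodendrocyte genes, -0.02 over 6 microglial genes and -0.02 over 6 endothelial genes, and none of these genes was past 1. Of the 9 libraries highest in the striatal list, 1 was among the 9 described here, which are 9 of all 56 libraries. It was WT fluoxetine male 1, with a mean log2 of 9.36 over the striatal list against a median of 7.77 in the 9. HT fluoxetine female 4, also of the 9, came next among them at 8.77. Whether the overlap differs from that of random sets was not tested.

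Cortical excitatory genes were slightly lower in the 9 libraries. Of 12 such genes 10 had a lower mean, the median difference was -0.15, and none had classes that did not overlap. Slc17a7, the vesicular glutamate transporter of cortical neurons, was 45151 to 54830.2 in the 9 and 50169.8 to 59615 in the 28. Over all genes, the 3 with all of the 9 below all of the 28 were Frmd5, Plxnd1 and Fbxo41, at log2 differences of -0.21, -0.18 and -0.13; they were singled out after their values were seen.

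Scn2a differed by -0.21 between the classes before centring and by -0.11 after it. The 6 HT libraries among the 9 held 7583 to 8702, and the lowest of all 29 HT libraries was HT lithium female 3, followed by HT vehicle female 1 at 7798. The 3 WT libraries held 9727 in WT vehicle female 3, 11074 in WT fluoxetine male 1 and 11857 in WT fluoxetine female 2, and the first 2 were the lowest of all 27 WT libraries.

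Ependymal and choroid plexus genes gave an uneven picture. The median log2 difference over the 6 tested was 0.34, and 2 of them, Aqp1 and Ttr, were past 1. Aqp1, a water channel of the choroid plexus, was 81.6 to 167 in the 9 libraries and 9.26 to 34.8 in the 28 without overlap. Ttr, the gene of transthyretin and the defining choroid plexus transcript, was 76.8, 215, 46.1, 41.6, 44.9, 2113, 30.2, 93.0 and 894 in the 9, in the order of falling Doc2g, and 0.950 to 754 in the 28. Only WT fluoxetine male 1 and HT vehicle female 1 of the 9 were above all of the 28. The choroid plexus genes Folr1, Kl and Rarres2 differed by 0.26, 0.24 and -0.06, and the part of choroid plexus in the Aqp1 difference was not tested.

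The proportions among the bulb transcripts were compared by dividing each gene's excess over the median of the 28 libraries by the excess of Doc2g in the same library. For Ms4a15 this share was 26.0% ± 2.16 (SD, n = 9), with a coefficient of variation of 8.30%, and for Cdhr1 it was 157% ± 13.4 (SD, n = 9) with 8.55%. For Eomes it was 29.7% ± 2.97 (SD, n = 9), for Th 43.3% ± 5.46 (SD, n = 9), and for the neuroblast gene Dlx1 91.1% ± 17.6 (SD, n = 9). The coefficient of variation was 12.6% for Th, 15.7% for Calb2, 19.3% for Dlx1, 26.9% for Dcx and 36.4% for Prokr2. It was 16.3% for the output neuron gene Tbx21 and 15.7% for the neuroblast gene Dlx2. These variations are not compared between gene groups, since the base subtracted differed widely: the median of the 28 libraries was 13.6 for Ms4a15 and 2018 for Dcx, and scatter of the base enters the share.

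For the sensory axon transcripts the coefficient of variation was 35.4% for S100a5, 40.04% for Omp and 33.1% for Stoml3, and for each of these genes HT lithium male 1 had the highest share (4.72% for S100a5, 11.03% for Omp and 3.10% for Stoml3, against means of 2.50%, 5.73% and 1.84%). These genes had low values, where counting error is larger, and its part in their spread was not tested. The same library had the lowest share of Calb2, Dlx2 and Prokr2. HT fluoxetine female 4 had the highest share of Eomes, Cdhr1, Th, Calb2, Sp9, Dlx2 and Prokr2, and HT vehicle female 1 the highest of Dlx1 and Dcx. WT vehicle female 3, with the most Doc2g, had the lowest share of all 4 of Ms4a15, Tbx21, Eomes and Cdhr1. Doc2g is the divisor of each share and also ranked the libraries, which favours low shares where Doc2g is highest. Nothing is read from which library had the lowest or highest share.

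**Figure D3:**
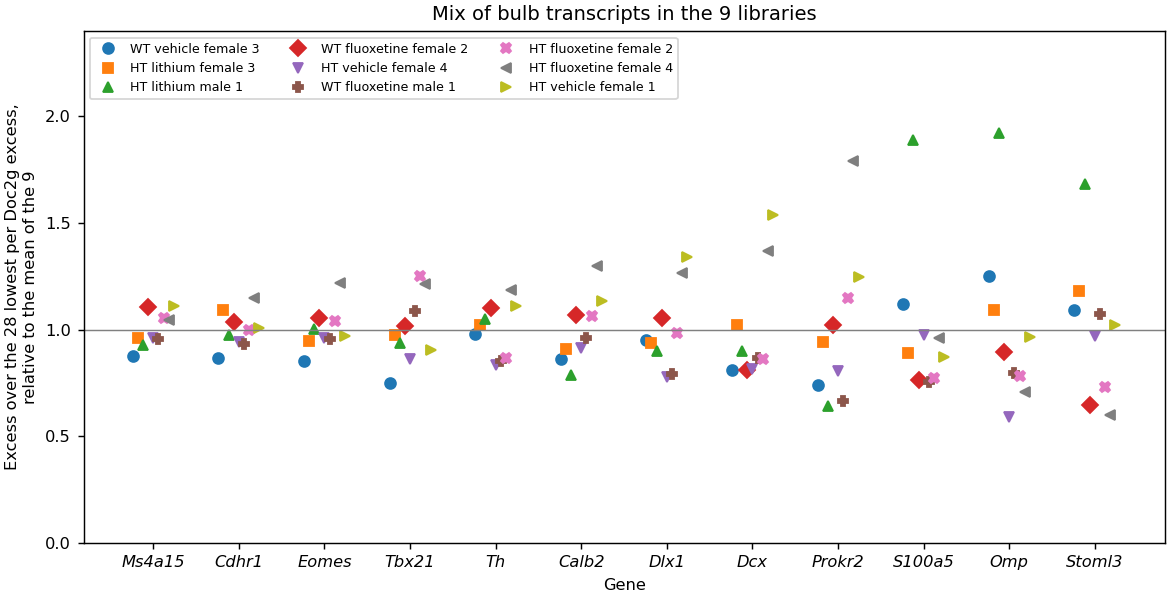
Excess of each gene over the median of the 28 lowest libraries, per Doc2g excess of the same library and divided by the mean over the 9, with 1 symbol per library and no unit on the vertical axis. Points for Ms4a15 and Cdhr1 lie close to 1, while HT lithium male 1 stands apart for S100a5, Omp and Stoml3.

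Within the classes, the lists were followed against Doc2g by correlation of log2 values, with 8 correlations in the family and permutation p-values of 100000 resamples. In the 19 middle libraries the mean of the projection neuron list without Doc2g had Pearson r = 0.88 (permutation p = 1e-05, the smallest these resamples can give, adjusted p = 4e-05) and Spearman rho = 0.81 (permutation p = 8e-05, adjusted p = 0.00032). The interneuron list had r = 0.94 (permutation p = 1e-05, adjusted p = 4e-05) and rho = 0.97 (permutation p = 1e-05, adjusted p = 8e-05), and the neuroblast list r = 0.66 (permutation p = 0.00175, adjusted p = 0.00467) and rho = 0.60 (permutation p = 0.00755, adjusted p = 0.0201). The striatal list had r = -0.20 (permutation p = 0.426, adjusted p = 0.426) and rho = -0.25 (permutation p = 0.293, adjusted p = 0.335). Without the 2 libraries farthest from the median Doc2g, r was 0.81, 0.96, 0.72 and -0.45 for the 4 lists, and the first 3 stayed past the threshold. Doc2g ranked the libraries, and the lists were chosen with earlier results of these data known. Small p-values for the bulb lists were therefore likely beforehand, and all 8 correlations serve as description, not as an independent check. The libraries of a class come from several genotype and drug groups, and groups hold too few of them for a value within each.

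In the 9 libraries the relation of the interneuron list by r rested on WT vehicle female 3 and HT lithium female 3, and that of the projection neuron list was weaker without them. With all 9, r was 0.95 for the projection neuron list (permutation p = 0.0033, adjusted p = 0.0066), 0.91 for the interneuron list (permutation p = 0.0108, adjusted p = 0.0173), 0.70 for the neuroblast list (permutation p = 0.0404, adjusted p = 0.0538) and -0.40 for the striatal list (permutation p = 0.23, adjusted p = 0.263). The corresponding rho was 0.82 (permutation p = 0.011, adjusted p = 0.022), 0.52 (permutation p = 0.162, adjusted p = 0.216), 0.27 (permutation p = 0.492, adjusted p = 0.492) and -0.70 (permutation p = 0.0437, adjusted p = 0.0699). Without those 2 libraries r was 0.64 (permutation p = 0.129), 0.04 (permutation p = 0.933), -0.43 (permutation p = 0.34) and -0.40 (permutation p = 0.387). The first 2 relations, past the threshold by r with all 9, were not past it over the other 7. For the projection neuron list r stayed at 0.64, and 7 libraries with a narrower range of Doc2g can miss a sizeable relation. The neuroblast r changed sign, and the striatal r, not past the threshold with all 9 either, was about the same.

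Neuroblast transcripts did not follow the bulb transcripts in every library. The 9 libraries highest in the projection neuron list were the same 9 as by Doc2g, against 8 of 9 for the interneuron list and 7 of 9 for the neuroblast list. HT vehicle male 4 had the lowest Doc2g of the middle class, at 304, with a Dcx of 2638 and a Prokr2 of 277. WT vehicle male 1 was in the lowest class, with a Doc2g of 149.7 and a Ms4a15 of 1.13, and held the highest Dcx (2749) and Prokr2 (282) of that class. At the other end HT fluoxetine male 1 had a Doc2g of 125, no reads of Ms4a15 or Eomes, a Dcx of 1622 and a Prokr2 of 45.7, the lowest neuroblast values of the 56 libraries.

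**Figure D4:**
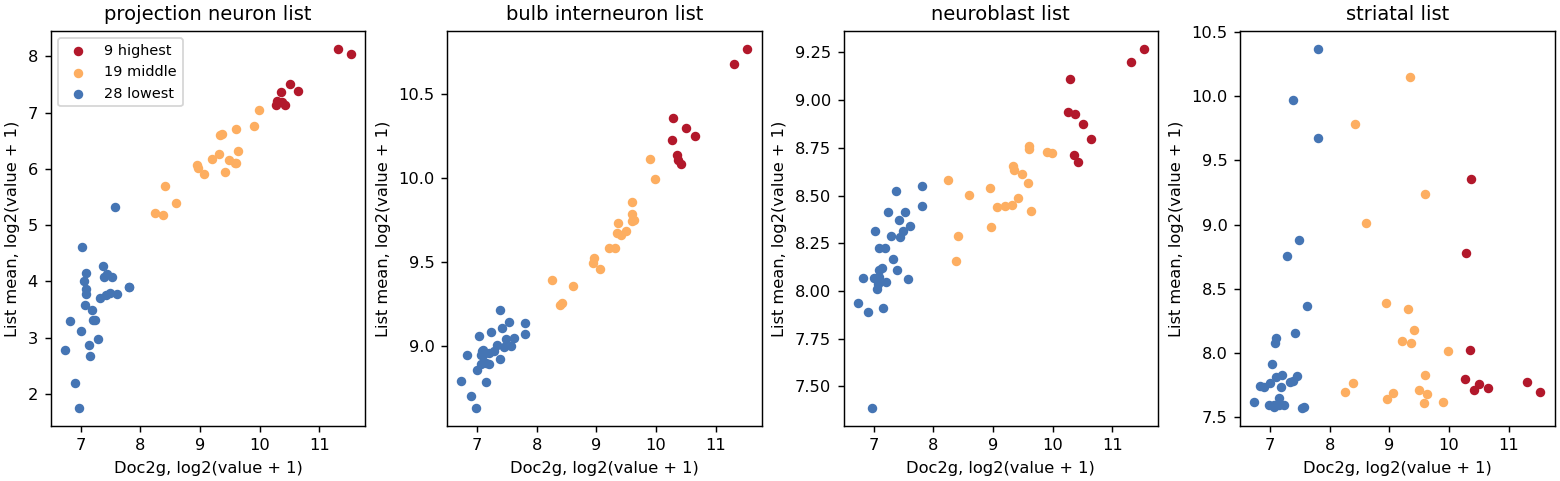
Mean log2(value + 1) of the projection neuron list without Doc2g and of the interneuron, neuroblast and striatal lists against Doc2g, 1 point per library, coloured by class. In the 19 middle libraries r was 0.88, 0.94, 0.66 and -0.20.

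The question for the study's design is how these libraries were spread over genotype and treatment. They comprised 2 HT vehicle, 2 HT fluoxetine, 2 HT lithium, 1 WT vehicle, 2 WT fluoxetine and 0 WT lithium libraries. By genotype they were 6 of 29 HT (20.7%) and 3 of 27 WT (11.1%), a difference that Fisher's exact test did not separate from an even spread (two-sided exact p = 0.472, adjusted over 3 tests p = 0.604). By treatment they were 3 of 19 vehicle, 4 of 18 fluoxetine and 2 of 19 lithium libraries (Fisher's exact test p = 0.604, adjusted p = 0.604). By sex they were 7 of 27 female (25.9%) and 2 of 29 male libraries (6.90%), with an exact p of 0.0733 and an adjusted p of 0.22. With 9 libraries in the class these tests can miss sizeable differences.

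Doc2g varied within every combination of genotype and treatment. In WT vehicle mice it was 142, 389, 2957, 179 and 491 in females 1 to 5 and 149.7, 333, 776 and 184 in males 1 to 4, and in HT vehicle mice it was 1231, 534, 222, 1374 and 159.7 in females and 174, 769, 165, 304 and 499 in males. Both genotypes thus had libraries from the lowest class and above it in both sexes.

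Under fluoxetine the WT values were 136, 1454, 189 and 718 in females and 1326, 112, 795, 683 and 958 in males. The HT values were 106, 1308, 119 and 1253 in females and 125, 129, 591, 141 and 648 in males. The WT fluoxetine males were the group with the highest median, 795, and HT fluoxetine males had a median of 141 with 3 of 5 in the lowest class.

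Under lithium the WT values were 135, 155, 133 and 136 in females and 170.1, 145, 128, 775 and 341 in males. The HT values were 636, 147, 2539, 132 and 1013 in females and 1601, 222, 194, 167 and 657 in males. WT lithium females were the only group with every library in the lowest class.

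**Figure D5:**
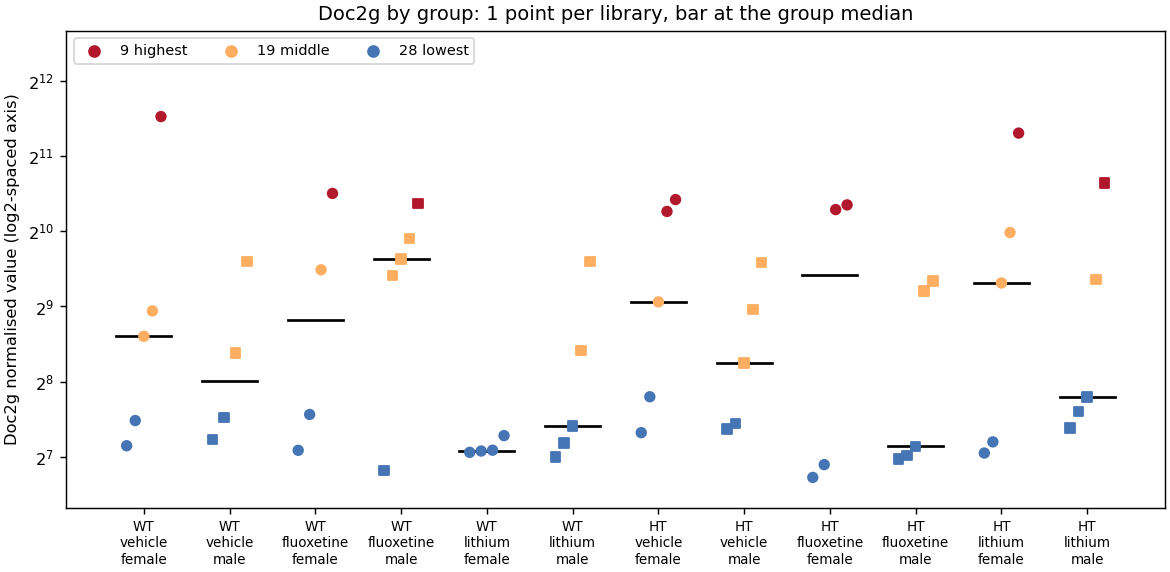
Doc2g values on a log2-spaced axis in the 12 groups, 1 point per library, circles for females and squares for males, coloured by class, with bars at group medians. WT lithium females lie at 133 to 155, and all other groups hold at least 1 library above the lowest class.

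The levels themselves were tested by permuting labels within the other 2 factors, in 6 two-sided tests of 100000 resamples. Mean log2(value + 1) of Doc2g was 8.56 ± 1.40 (SD) in HT and 8.35 ± 1.35 in WT libraries, a difference of 0.24 within strata (permutation p = 0.527, adjusted p = 0.927). Fluoxetine libraries differed from vehicle by 0.04 (permutation p = 0.927, adjusted p = 0.927) and lithium libraries by -0.41 (permutation p = 0.348, adjusted p = 0.927). The projection neuron list without Doc2g differed by 0.21, 0.09 and -0.37 in these comparisons (permutation p = 0.658, 0.885 and 0.464, each with an adjusted p of 0.927). The difference between HT and WT in the effect on Doc2g was -0.88 for fluoxetine (permutation p = 0.354) and 1.05 for lithium (permutation p = 0.234), with an adjusted p of 0.354 for both.

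Several output neuron genes of the bulb had some of the largest scatter between libraries of the same group. The residual SD within groups, on the log2 scale, was 2.37 for Ms4a15, 2.18 for Eomes, 2.12 for Tbx21 and 1.40 for Doc2g, against a median of 0.13 over all genes tested. Without the 9 libraries it was 2.12, 1.86, 1.87 and 1.07. Not all listed bulb genes scattered in this way: with all libraries the residual SD was 0.12 for Etv1, 0.14 for Tpbg and 0.24 for Meis2.

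In the study's comparisons this scatter set wide errors on the output neuron genes. limma was fitted to log2(value + 1) of all 17778 genes with 12 group means and equal weight for the sexes, and calls were made at an adjusted p (Benjamini-Hochberg) under 0.05. Over all genes it called 1 gene for HT against WT under vehicle (0.00562%), 26 for fluoxetine in WT (0.146%), 8 for fluoxetine in HT (0.045%), 1016 for lithium in WT (5.71%) and 1560 for lithium in HT (8.77%). Of the 41 listed bulb and neuroblast genes, 0, 0, 0, 2 and 0 were called, and edgeR on the recovered reads gave the same 5 counts. At an unadjusted p under 0.05 limma had 2, 0, 0, 6 and 3 of the 41. Over all 17778 genes it had 1765, 1929, 1521, 3810 and 4145, a larger share than among the 41 in every comparison.

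The 2 called in WT mice under lithium were not genes that stood out in the 9 libraries. Gng13, a G protein subunit of olfactory and taste signalling, fell by 0.35 (SE 0.08, adjusted p = 0.00959), and its log2 difference between the 9 and the 28 libraries was 0.01. Ccnd2, the gene of cyclin D2, rose by 0.26 (SE 0.07, adjusted p = 0.0226), with a difference between the classes of -0.07. Without the 9 libraries the adjusted p was 0.019 for Gng13 and 0.0563 for Ccnd2. In the other comparisons the smallest p among the 41 was that of Frzb for genotype (change -0.18, adjusted p = 0.391), Rtp1 for fluoxetine in WT (0.64, adjusted p = 0.506), Igfbpl1 for fluoxetine in HT (-0.71, adjusted p = 0.622) and Gng13 for lithium in HT (-0.21, adjusted p = 0.0833).

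None of the 7 projection neuron genes was called in any comparison. Those with a higher fitted value numbered 7, 7, 0, 1 and 5 of 7 for genotype, fluoxetine in WT, fluoxetine in HT, lithium in WT and lithium in HT. Over all 17778 genes 9168, 9119, 8968, 9017 and 8840 were higher. The 7 genes share the libraries and vary together in them, so their directions are not separate observations. The median log2 change of the 7 was 0.29, 0.68, -0.46, -0.98 and 0.12 in this order, while the median standard error was 0.71 to 0.76. The fluoxetine and lithium comparisons of a genotype share its vehicle libraries. Doc2g had a log2 change of -0.94 for lithium in WT (SE 0.66, adjusted p = 0.435), which became -0.59 without the 9 libraries, although none of the 9 was a WT lithium library. The vehicle group held WT vehicle female 3, at 2957.

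Leaving out the 9 libraries altered the counts over all genes in every comparison. The calls went from 1 to 7 for genotype, from 26 to 5 for fluoxetine in WT, from 8 to 3 for fluoxetine in HT, from 1016 to 687 for lithium in WT and from 1560 to 940 for lithium in HT. Fewer samples enter these fits, so the smaller number of libraries and the loss of bulb RNA cannot be told apart in these counts. For genotype under vehicle Scn2a was called both ways (change -0.53 with all libraries and -0.55 without the 9), and Ube2z, Zwint, Gabre, Eef1a1, Wdfy4 and Blcap were called only without them, with adjusted p-values of 0.0663 to 0.231 in the fit of all libraries.

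Calls for fluoxetine that were made both ways were Jdp2, Insig1 and 2 predicted genes in WT mice and 3 genes in HT mice, Stard4 and Fdps among them, and Zbtb16 was called in WT mice only without the 9 libraries. Of the lithium calls, 650 of 1016 in WT (64.0%) and 864 of 1560 in HT (55.4%) were also called without them. These genes were named after their values were seen. With the mean of the projection neuron list as a covariate and all 56 libraries kept, the calls were 11, 47, 11, 1071 and 1834, and they included 1 of 1, 25 of 26, 8 of 8, 893 of 1016 and 1560 of 1560 of the calls made without it. Leaving out single libraries moved the genotype count to 35 at most (without HT vehicle female 1, one of the 9) and the fluoxetine count in WT to between 0 and 71. The 0 was without WT vehicle male 1, of the lowest class, and the 71 without WT fluoxetine male 1, one of the 9. Without HT lithium female 2, of the lowest class and outside that comparison, the fluoxetine count in WT was 4. Such shifts thus also came from libraries outside the 9.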

How the data were processed

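Poly(A) RNA of prefrontal cortex from 56 mice was sequenced. Per the labels' protocols, libraries were made with a strand-marking TruSeq mRNA kit. The build GRCm38, DESeq2 1.19.11, Salmon 0.11.2 and R 3.6.0 appear without their roles, per the submitters' processing notes. The deposited table holds 18088 genes as a signal that the authors made by dividing read counts by a size factor per library. On the values, 100% were whole multiples of a step per library to within 0.01 reads, so reads and size factors were recovered. Symbols from GENCODE vM21 matched 18077 IDs. Salmon divides reads between near-identical genes by a model, so Fam205a2, Fam205a4 and Hist2h2aa2 are uncertain.

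Genes at 10 or more in at least 4 libraries were tested (17778 kept, 310 left out). limma 3.58.1 in R 4.3.3, with a variance trend and robust settings, was fitted to log2(value + 1) over all 56 libraries. The plan had foreseen edgeR for counts and limma for size-factor-normalised values, so limma was used, and edgeR 4.0.16 served as an added alternative. Permutation tests, correlations and the exact test over treatment were coded with numpy 2.4.6. Fisher's exact tests over genotype and sex, ranks and the adjustment of these p-values used scipy 1.17.1. Scripts were tested on simulated data. The log2 difference of 1 and the lists were fixed by choice, not by a test.

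The members and lists were chosen with earlier results of these data known. Genes named are the 5 markers, list members, the 20 largest and 10 smallest differences between the 9 and 28 libraries with a mean of at least 50 and no predicted genes, the list members called per comparison or else the one with the smallest p, and Scn2a. Some genes this rule names are not reported here. Alternatives were TMM rescaling, no filter, other pseudocounts, other class sizes and rankings, a replicate block, only the groups compared and leaving out libraries. Chosen after seeing the data were edgeR and females only.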

Additional observations from a re-analysis of the deposited data

Results flagged for a closer look

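Doc2g and the means of the projection neuron, interneuron and neuroblast lists were examined for a sample far from the others in the 12 groups and in the 9 libraries, 52 times in all, and chance marks about 1 in 20. WT vehicle female 3 stood apart in its group, with a Doc2g value of 2957 against 491 in the next highest library. WT lithium female 2 was apart at 155.5 against 135.8, within a group that spanned only 133 to 155. WT lithium female 3 was the lowest of that group in the interneuron list, at a mean log2 of 8.89 against 8.97 in the next.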

How the results depend on the processing

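TMM rescaling, pseudocounts of 0.5 and 5, no filter and edgeR moved none of the limma counts over all genes by more than 1.5 times, although the lithium calls in WT mice were 682 higher and 334 lower in limma and 460 and 358 in edgeR. Without the 9 libraries the counts were 7, 5, 3, 687 and 940 for genotype, fluoxetine in WT, fluoxetine in HT, lithium in WT and lithium in HT, and 1 listed bulb gene was called for lithium in WT. With the projection neuron covariate genotype gave 11 and fluoxetine in WT 47. With only the groups compared fluoxetine gave 9 in WT and 19 in HT, and 1 listed gene was called for lithium in WT.

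With the replicate number as a block (replicate block) the counts were 1, 49, 8, 1055 and 1588, and fluoxetine in WT went from 26 to 49. The numbers did not pair the libraries: same-numbered libraries of different groups had a mean correlation of deviations of -0.002, with 24 of 292 pairs over 0.1, and 9 of 56 correlated best with their own number.

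Leaving out each library in turn gave 1 to 35 calls for genotype, 0 to 71 for fluoxetine in WT, 4 to 13 for fluoxetine in HT, 571 to 1226 for lithium in WT and 985 to 1815 for lithium in HT. Listed bulb genes called were 0 in the first 3, 1 to 2 for lithium in WT and 0 to 1 for lithium in HT. Lithium in WT was lowest without WT vehicle male 1, and lithium in HT without HT lithium male 3. The fluoxetine differences, near 0, changed sign: Doc2g ran from -0.11 to 0.22 and the projection neuron list from -0.12 to 0.31. The other differences kept their sign, with Doc2g by lithium at -0.56 to -0.24. Adjusted p-values of the spread were 0.386 to 0.895 for genotype, 0.597 to 0.895 for treatment and 0.0744 to 0.392 for sex.

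Genes past the log2 difference of 1 numbered 117 to 184 in the higher direction over all alternatives. In the lower direction they were 46 with the 5 highest libraries, 9 with the 14 highest, 7 with a pseudocount of 5 and 22 to 33 without single libraries. Without the 2 libraries farthest in Doc2g, the correlations in the 9 were 0.64 (projection neuron, no longer past the threshold), 0.0414 (interneuron, likewise) and -0.43 (neuroblast, reversed), and with a pseudocount of 5 the neuroblast correlation was 0.70 (adjusted permutation p = 0.0486). The cause of these changes was not tested. Leave-one-out permutations used 20000 resamples. Intervals of counting error do not cover dissection, and genes at a few reads, such as S100a5 in the lowest class, are limited by depth.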
